A study of Mus musculus with 6 samples.

Results

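The genes that encode the proteins of the cytosolic ribosome were taken as 1 group from RNA sequencing of mouse stem cell-derived heart pacemaker cells. A gene belonged to the group when its symbol was Rpl (large subunit) or Rps (small subunit) followed by the protein's number, with an optional a, l or x, or was Rplp0, Rplp1, Rplp2 or Rpsa. This picked 87 of the 30631 listed genes, 52 of them with large subunit symbols and 35 with small subunit symbols. The rule leaves out rows named as pseudogenes with -ps and the Rps6k kinase genes. The test took genes that reached 10 or more in 3 or more of the 6 libraries, which 81 of the 87 did, 48 with large and 33 with small subunit symbols. The 6 below that level were Rpl3l, Rpl6l, Rpl10l, Rpl39l, Rps3a2 and Rps3a3, and each of the 77 genes left after removal of paralogs with an l suffix and retrogene rows was above it.

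The cells came from mouse embryonic stem cell clones differentiated in hanging drops and sorted for CD166, a surface protein used to enrich sinoatrial node-like cardiomyocytes, at stage 7+1 day. Of the 6 libraries, 3 are labelled wild type, which the protocol writes as Shox2+/+, and 3 are labelled Shox2-/-, and no treatment other than the differentiation is named. Shox2 encodes a homeobox transcription factor of the sinoatrial node. They are called WT and KO libraries 1 to 3 below, after these labels. All KO titles share the letters J2 while the WT titles share none, so an effect of the genotype and one of the clone cannot be told apart. Separate cultures are not mentioned for any library, and the p-values therefore measure the spread between libraries only, part of which may be technical.

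The ribosome is built from ribosomal RNA and about equal molar amounts of each ribosomal protein, which sit in a small subunit that decodes the mRNA and a large subunit that forms the peptide bond. Many of the mRNAs start with a C followed by a run of C and T, the 5' terminal oligopyrimidine motif, through which the mTOR pathway and Larp1 control their translation. Mammalian genomes also carry many processed pseudogenes of ribosomal proteins, intron-free copies of their mRNAs, so that a short read can match a gene and its copies equally well.

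Each gene has 1 deposited value per library, a read count divided by 1 size factor for that library. The reads recovered from these values came to between 13504683 and 34650564 per library, with the shallowest library being number 1 in both groups. Shox2 itself, the targeted gene, was listed at 89.6, 83.4 and 31.4 in the WT libraries and at 201, 548 and 373 in the KO ones. Every KO library was therefore above every WT library, the opposite of a loss of the transcript. Which part of the gene was altered is not given in the sources used here, and directions below are those of the labels. All 12 cardiomyocyte markers and all 8 sinoatrial markers looked up were above 0 in each library, and the 12 cardiomyocyte markers together held 0.0518% to 0.175% of all values. The 8 mesenchymal markers held 1.66% to 2.49% in the WT libraries and 0.757% to 1.22% in the KO ones. The 18 proliferation genes held 0.406% to 0.419% and 0.472% to 0.505%, respectively. The 8 sinoatrial markers held 0.0155%, 0.0150% and 0.0306% in the WT libraries and 0.0157%, 0.0127% and 0.0153% in the KO ones. These shares overlapped, with WT library 3 apart, and 3 of the 8 had a log2 change above 0 and 5 below. The 10 epithelial and endoderm markers, all with a log2 change below 0, held 0.0610% to 0.0688% in the WT libraries and 0.0245% to 0.0751% in the KO ones. The 6 endothelial markers held 0.0201% to 0.0645% and the 7 pluripotency markers 0.00226% to 0.00505% over the 6 libraries. The 7 blood markers held between 0.00591% and 0.0884%, with low and high libraries in both groups. None of the 58 genes of the 7 marker lists was at 0 in any library, and what part these cell types had in the ribosomal protein values was not tested.

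Ribosomal protein genes held a small and steady part of the deposited values, in which reads that also match copies may be missing or counted elsewhere. Their summed values made up 1.07%, 1.03% and 1.10% of all values in WT libraries 1, 2 and 3. In the KO libraries they made up 1.09%, 1.05% and 1.15%. The groups overlapped, with means of 1.07% ± 0.0359 (SD, n = 3) and 1.09% ± 0.0494 (SD, n = 3). The large subunit genes held 0.606% to 0.673% and the small subunit genes 0.423% to 0.476% of each library. The ratio of the large to the small subunit sum was 1.46 ± 0.0456 (SD, n = 3) in the WT libraries and 1.43 ± 0.0167 (SD, n = 3) in the KO ones, also with overlap. As bulk samples were measured, a different number of cells of a type and a different amount of RNA per cell cannot be told apart.

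A few genes carried a large part of that sum. Rps3, a small subunit protein at the channel where the mRNA enters, had the highest value, with 26171, 24457 and 26747 in the WT libraries and 27175, 27995 and 29962 in the KO ones. Rpl4 and Rpl8, both of the large subunit, had mean values of 23128 and 21888 over the 6 libraries, and Rplp0 had 9114. The 5 genes with the highest values made up 39.2% of the sum of all 87. At the other end, Rpl35 and Rpl23a, which both lie near the exit of the peptide tunnel, had mean values of 17.0 and 17.3. These values are not divided by gene length.

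Levels between genes were compared per kb of merged exons. By that measure Rplp1 (16333 per kb), Rpl8 (16106 per kb), Rpl4 (11524 per kb) and Rpl32 (9046 per kb) were among the 5 highest genes. Between neighbours in this order the group means crossed for Rplp1 and Rpl8, with Rpl8 at 15089 per kb in the WT libraries and 17124 per kb in the KO ones, so that these 2 were not separated. The lowest tested genes per kb were Rpl35 (13.7 per kb), Rps16 (16.7 per kb), Rps13 (17.9 per kb), Rpl23a (20.5 per kb) and Rps25 (22.1 per kb). Their group means crossed for Rps16 and Rps13, for Rps13 and Rpl23a and for Rpl23a and Rps25, so that these neighbours were not separated either. Rpl35 was below Rps16 in both group means, but not in every library. In KO library 2 it was listed at 21.4 over 1241 exon bases, and Rps16 at 15.2 over 1266. Counted per kb of coding sequence instead, the order over the 77 genes was nearly kept, with a Spearman correlation of 0.95 between both measures.

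Genes whose coding sequence is shared with other annotated genes had the lower levels. For each of the 77 genes, every 50-base window of the coding sequence was looked up in the annotated transcripts of all other genes on both strands. For 28 genes no window was unique to the gene, and their median level was 155 per kb of merged exons, with a range of 16.7 (Rps16) to 1414 (Rpl13). Another 30 genes had some but under 20% unique windows and a median of 390 per kb. The 9 genes with 20% to under 50% had a median of 2559 per kb, and the 10 genes with 50% or more had a median of 5857 per kb, with a range of 2018 (Rps21) to 16106 (Rpl8). The ranges of the bins between were 13.7 to 4886 per kb (under 20%) and 104 to 16333 per kb (20% to under 50%). Neighbouring bins thus overlapped, while the first and the last did not. Between neighbouring bins the share of unique windows therefore did not fix the level of a single gene. Those 10 genes, among them Rpl4, Rpl8, Rpl22, Rpl32, Rps3, Rps9, Rps15 and Rps21, made up 49.2% of the summed values of the 87, and the 28 genes with no unique window 6.45%. The Spearman correlation between the share of unique windows and the level per kb was 0.71, both with merged exons and with coding bases as the length. It is a description over 77 genes of the same 6 libraries, which are not independent replicates.

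**Figure D1:**
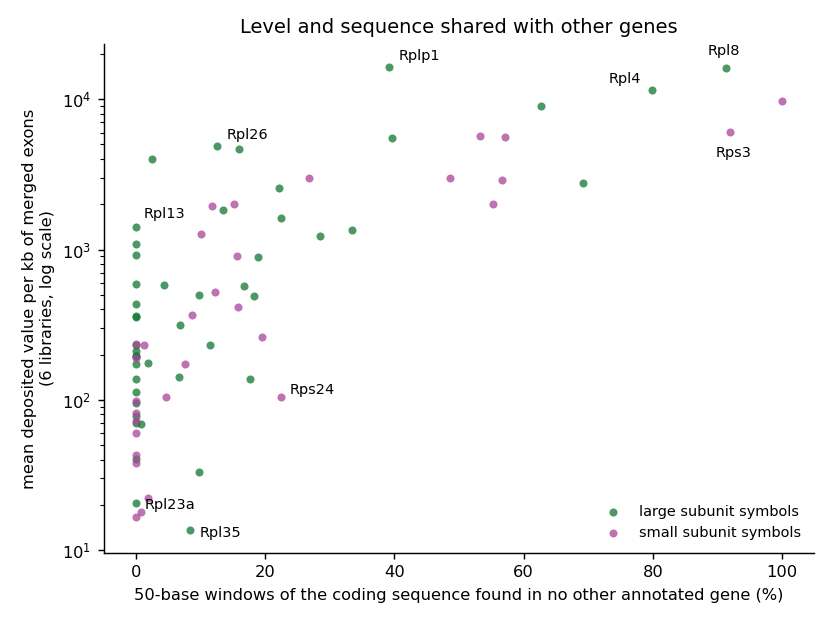
Mean deposited value per kb of merged exons over 6 libraries (vertical, log scale) against the percent of 50-base windows of the coding sequence found in no other annotated gene (horizontal), 1 point for each of 77 ribosomal protein genes. The 28 points at 0% reach from the bottom to Rpl13 at 1414 per kb, while the 10 points at 50% or more lie at 2018 per kb or higher.

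Copies of the coding sequence were widespread. Of the 77 genes, 74 had at least 1 other annotated gene that matched at 95% identity or more over 80% or more of the coding sequence, and the median was 6 such copies per gene. Rpl21 had the most, 57. The 3 genes without a copy, Rps3 and Rpl8 among them, were among the 4 with the highest values. For 20 of the 77 genes the listed copies together held a higher value than the gene itself. Among single copies with a mean value of at least 500, 17 exceeded their gene, and in 13 of these 17 pairs every library of the copy was above every library of the gene.

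Some of these pairs do not differ at all in the coding sequence, and the start of it is shown for a pair without any difference and a pair with some, in both of which the copy held over 10 times the value of the gene. Rpl38 (chr11:114668524-114672331, plus strand, GRCm38) and its copy Rpl38-ps2 (chr6:140746960-140747172, minus strand) were identical over all 213 bases. Rps25 (chr9:44407139-44410427, plus strand) and Rps25-ps1 (chr6:145266400-145266777, plus strand) differed at 4 of 378 bases. The first 60 bases from the start codon follow from the GENCODE M21 transcripts, with capitals marking bases that differ between gene and copy.
Rpl38: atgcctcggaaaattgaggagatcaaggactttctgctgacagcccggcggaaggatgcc
Rpl38-ps2: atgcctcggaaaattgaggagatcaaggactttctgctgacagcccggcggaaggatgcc
Rps25: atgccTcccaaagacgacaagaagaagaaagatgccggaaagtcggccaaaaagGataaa
Rps25-ps1: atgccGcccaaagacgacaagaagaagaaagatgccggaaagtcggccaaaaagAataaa
Within these 60 bases, all letters outside the capitals are the same in gene and copy.

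The values of genes and copies stood far apart in these pairs. Rpl38, a large subunit protein, was listed at 14.9, 52.8 and 44.0 in the WT libraries and at 38.1, 39.3 and 40.7 in the KO ones, and Rpl38-ps2 at 1049, 1334 and 1508 and at 562, 1580 and 1150. Every library of the copy was above every library of the gene, and the ratio of the means was 31.3 over the same coding length. Rps25 had a mean value of 59.5 against 922 for Rps25-ps1, a ratio of 15.5. Rps13 had 48.1 against 1012 for Rps13-ps2, and Rps10 had 397 against 2342 for Rps10-ps1. Such a low value is therefore uncertain as a measure of the gene: how reads that match 2 places were counted is not given in the sources used here. When the values of annotated copies were added to their gene, the spread of the values per coding kb over the 77 genes, as the SD of log2 values, went from 2.64 to 2.22. Of 578 different copies, 323 had a deposited value that was added. Reads left out at counting would not return in this way, and what the remaining spread comes from was not tested. Without division by length, the highest value was 1592 times the lowest before the addition and 851 times after. Between the share of unique windows and the value, not divided by length, the Spearman correlation was 0.72 before and 0.67 after.

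**Figure D2:**
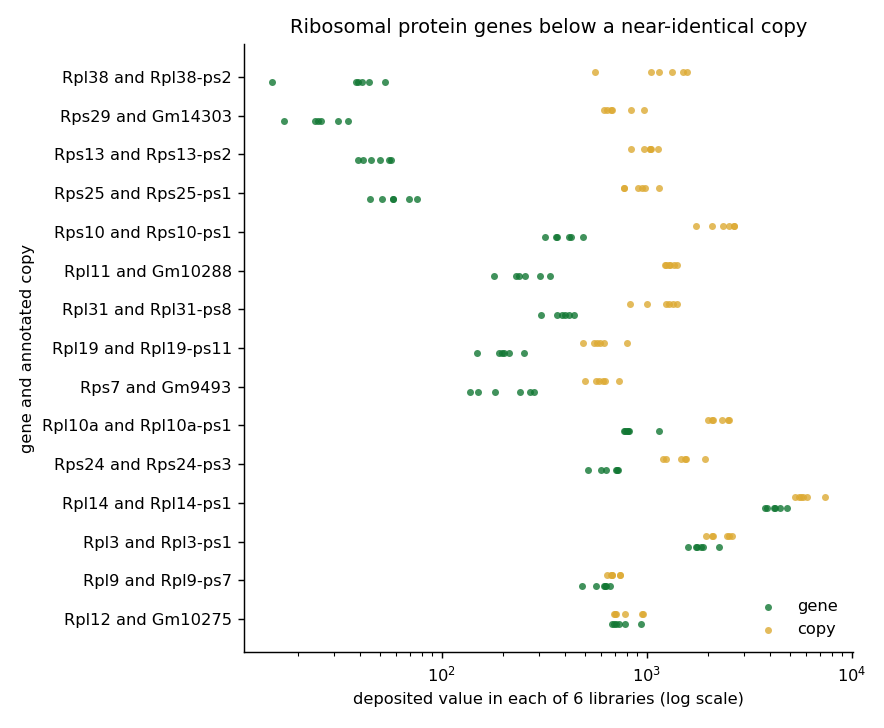
Deposited values in each of 6 libraries (horizontal, log scale) for 15 of the 17 ribosomal protein genes (green) and the annotated copy of each (yellow), ordered by the ratio of the means. In the upper rows the copy lies far to the right, up to 31.3 times the gene for Rpl38, and in the lower rows the points of gene and copy meet.

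Part of the annotated start sites carried a run of pyrimidines. RefSeq promoter sequences (GRCm38.p6) were at hand for 63 of the 87 genes, with 75 start sites. The first transcribed base was C at 22 of the 75 (29.3%), against 16.3% of all 32851 start sites in the table. A run of at least 5 C or T began at the annotated start for 16 of the 75 (21.3%), against 4.44% of all. Some of these runs begin with T, so not all of the 16 meet the motif with C as the first base. Within 10 bases of the start, a C as the first base of such a run was found at 41 of the 75 (54.7%), against 30.7% of all. The sequence CCGGAAG, looked for on both strands, was in 27 of the 75 windows from 250 bases before to 50 after the start (36%), against 8.86% of all. These are matches of letters, and the annotated start can differ from the one used in these cells.

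Start windows of 4 genes with a run and of Rps3 and Rpl4, which had the highest values and no run, are shown from 10 bases before the start to 15 bases into the transcript, with the run from the start in capitals. They lie at chr14:18270972-18270996 (Rpl15, minus), chr4:86857353-86857377 (Rps6, minus), chr17:27635230-27635254 (Rps10, minus), chr11:114668570-114668594 (Rpl38, plus), chr7:99483695-99483719 (Rps3, minus) and chr9:64173377-64173401 (Rpl4, plus).
Rpl15: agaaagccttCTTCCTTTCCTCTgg
Rps6: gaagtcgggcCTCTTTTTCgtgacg
Rps10: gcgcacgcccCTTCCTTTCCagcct
Rpl38: aagcctcgttCTTTCCCCgttctct
Rps3: aagggtcgccgcgctgcgcggcgtc
Rpl4: tttcctgtgggagcagccgggtaga
The 16 tested genes with a run from an annotated start had a median log2 change of 0.08 between the labels, with 11 of 16 above 0. The 44 tested genes with start sites but no such run had a median of 0.10, with 35 above 0.

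Between the labels, no ribosomal protein gene passed the test. On log2(value + 1), limma with Benjamini-Hochberg adjustment over all 17034 tested genes called 0 of the 81 at an adjusted p under 0.05, and 0% of all genes, with adjusted p from 0.297 to 0.992 for the 81. At an unadjusted p under 0.05, 2 of the 81 were found (2.47%), against 14.2% of all tested genes. That count was 1 to 7 with 1 library left out. It was 7 without WT library 3 (2677 of 16764 over all genes) and 4 without KO library 2 (2450 of 16840). With scaling by upper quartiles it was 4 (2592 of 17124 over all genes). With the libraries titled Diff9 as a block it was also 4 (2529 of 17034), and 12 with voom (3918 of 17034). Limma's voom on the recovered reads with sample quality weights called 391 genes and leaving out KO library 2 called 51, but none of the 81 in either case. The fitted log2 changes, KO minus WT, ran from -0.52 to 0.75. For 77 of the 81 genes (95.1%) the 95% interval lay within 1 log2 unit of 0, against 68.2% of all tested genes. The 4 exceptions, Rpl23a, Rpl38, Rps16 and Rps27, were all low, with mean values of 17.3, 38.3, 21.1 and 45.0. At mean values of at least 1000, intervals within 1 log2 unit of 0 were found for 100% of the 40 ribosomal protein genes. For all 5373 such genes the share was 92.6%.

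The small differences leaned to one side. Of the 81 genes 61 had a log2 change above 0, against 8823 of 17034 over all tested genes. The median was 0.09, against 0.01 over all tested genes. The 48 large subunit genes had a median of 0.08 (36 above 0) and the 33 small subunit genes a median of 0.10 (25 above 0). With any 1 library left out the median of the 81 lay between 0.04, without WT library 1, and 0.14, without KO library 2. The sign rests on the scaling: when upper quartiles were brought to their mean, the median of all genes moved to -0.19 and that of the ribosomal protein genes to -0.11, with 14 of 81 above 0. Relative to all genes the difference was 0.08 in both cases, and single genes named below shift by about as much as all genes do. Among highly counted genes (mean value of at least 1000), the 40 ribosomal protein genes had a median of 0.08, with 33 above 0. All 5373 such genes had a median of 0.09, with 3554 above 0.

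Library by library, the genes shifted together by a little. The median of log2(value + 1) minus each gene's mean over the libraries was -0.08, -0.07 and 0.04 in WT libraries 1, 2 and 3 and 0.10, -0.02 and 0.07 in the KO ones. WT library 3 and KO library 2 thus lay across the line between the groups. KO library 1 was the highest for 25 of the 81 genes, and WT library 1 the lowest for 26. Over all tested genes the shares with that library at the top and at the bottom were 25% and 15%. Mitochondrially encoded genes held 1.69% of all values in WT library 3 and 1.65% in KO library 1, against 0.937% to 1.12% in the other 4, and their part in these shifts was not tested.

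**Figure D3:**
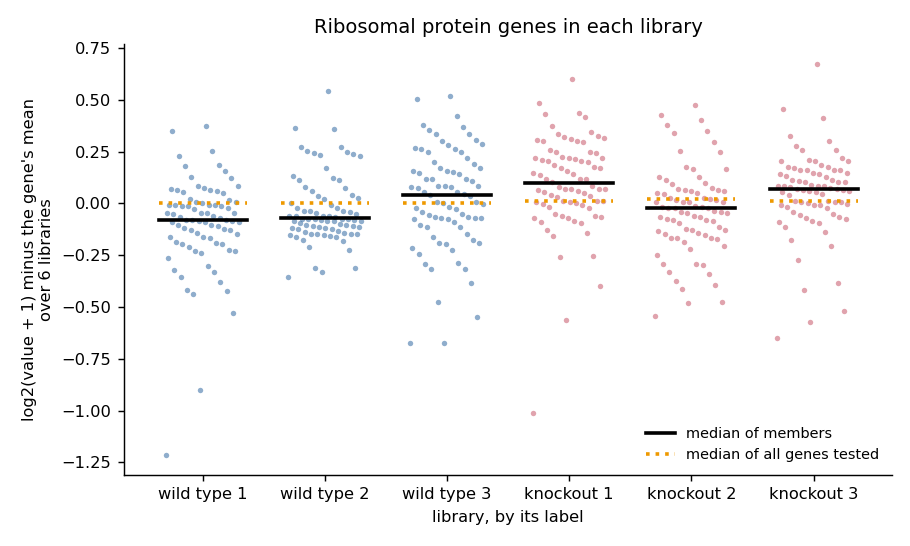
Log2(value + 1) minus the gene's mean over 6 libraries (vertical) in each library (horizontal), 1 point per tested ribosomal protein gene, with the median of the 81 genes (black) and of all tested genes (dotted). The black medians run from -0.08 in WT library 1 to 0.10 in KO library 1, with WT library 3 above KO library 2.

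Counts of genes whose groups did not overlap were low. All 3 KO libraries lay above all 3 WT libraries for 6 of the 81 genes (7.41%), against 12.8% of all tested genes. They lay below for 2 of the 81 (2.47%), against 10.8%. The 6 were Rpl12, Rpl23a, Rpl27, Rpl36, Rpl41 and Rps3, and the 2 were Rpl10 and Rpl26. Of these, Rpl36 and Rps3 fell outside the rule for named genes and were picked after their values were seen.

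Rpl27, a large subunit protein, had the lowest p of the group. It was listed at 526, 484 and 390 in the WT libraries and at 642, 705 and 567 in the KO ones. The ratio of means was 1.37 and the log2 change 0.45 (SE 0.16, unadjusted p = 0.0221, limma adjusted p = 0.297). No 50-base window of its 411-base coding sequence was unique, and its 5 listed copies together had a value of 10.6. Rpl23a had the largest log2 change, 0.75 (SE 0.37, limma adjusted p = 0.395), with 8.30, 13.0 and 17.3 against 19.0, 19.7 and 26.7. These values stand for few reads, and the log2 change was 0.49 without WT library 1 and 0.22 when the values of annotated copies were added. Rpl12, which binds at the base of the stalk, was at 710, 680 and 696 against 941, 730 and 788, a log2 change of 0.23 (SE 0.13) that was 0.13 without KO library 1. Rpl41, a peptide of the large subunit with the shortest coding sequence of the group (78 bases), was at 1110, 1218 and 1277 against 1282, 1427 and 1338. Its log2 change was 0.17 (SE 0.10), 0.11 without WT library 1 and -0.04 with scaling by upper quartiles. Rpl36 had a mean of 59.6 ± 5.48 in the WT and of 75.3 ± 6.43 (SD, n = 3) in the KO libraries, a log2 change of 0.33 that was 0.18 with annotated copies added. Rps3 had a log2 change of 0.14, and -0.07 with scaling by upper quartiles. Rpl19, whose groups overlapped, was at 0.30 (SE 0.19), at 0.17 without WT library 1 and at 0.11 with annotated copies added.

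On the other side, Rpl10, a large subunit protein that joins late in assembly near the site where tRNAs bind, had the lowest p. It was listed at 926, 955 and 1051 in the WT libraries and at 792, 846 and 767 in the KO ones, a ratio of 0.820. The log2 change was -0.28 (SE 0.11, unadjusted p = 0.0320, limma adjusted p = 0.317). Rpl26, which lies near the tunnel exit, was at 7402, 7353 and 7457 against 6728, 6461 and 6931. The libraries labelled wild type were close together there, and the log2 change was -0.14 (SE 0.09, limma adjusted p = 0.478). Rps27a, a fusion of ubiquitin and a small subunit protein, stood at a log2 change of -0.30 (SE 0.18), or -0.16 without KO library 3, and Rpl13 had one of -0.22 (SE 0.18). In both the groups overlapped. Rpl13 was high in WT library 3 (5124) and at 3031 to 3665 in the other 5, and without that library its log2 change was -0.02. It was -0.14 without KO library 1 and -0.04 with voom.

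**Figure D4:**
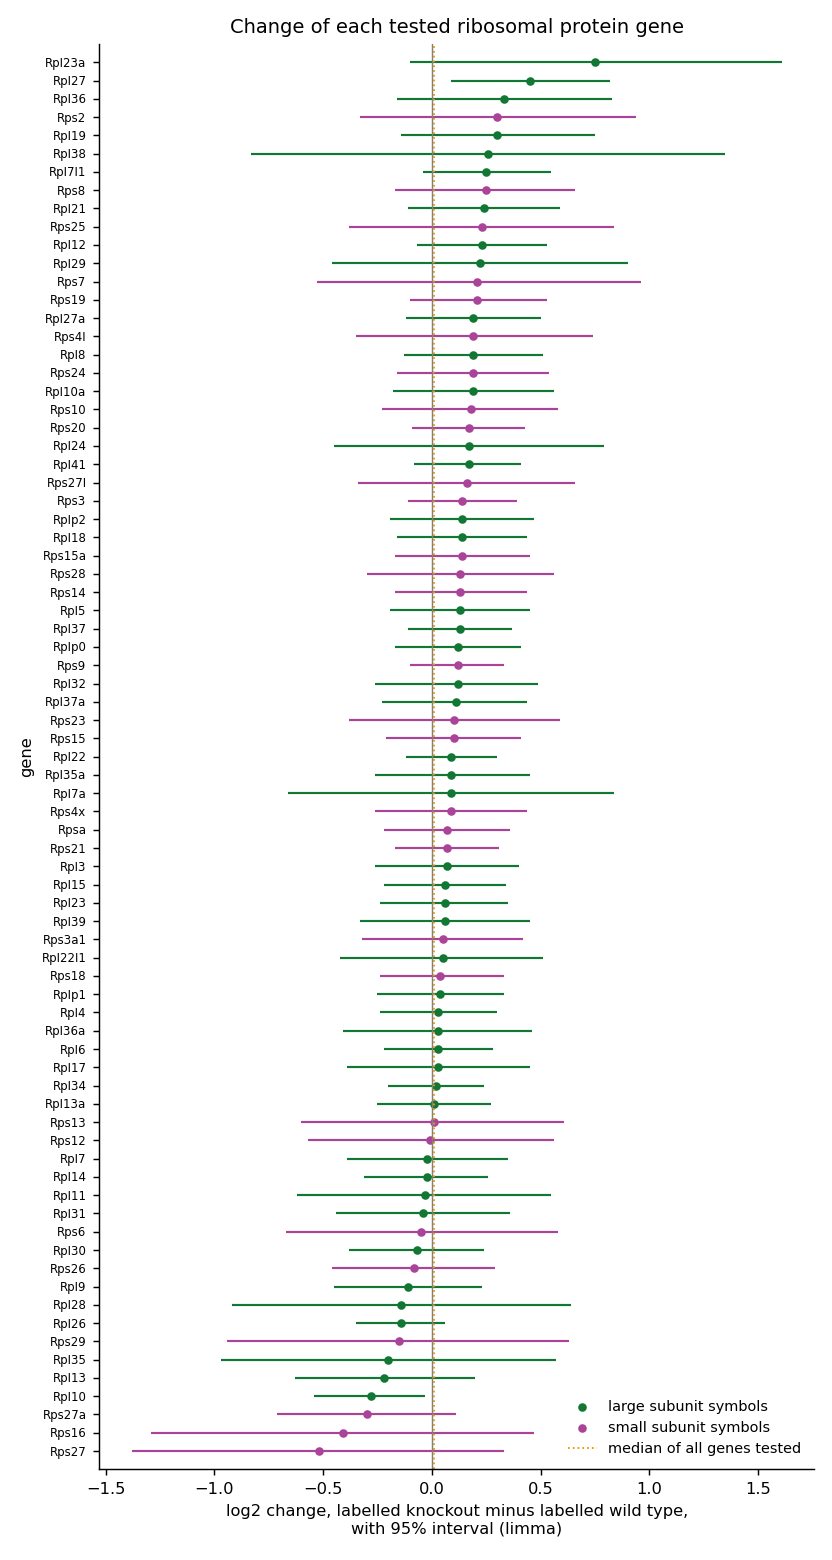
Log2 change between the labels (horizontal, KO minus WT, with the 95% interval from limma) for 77 of the 81 tested ribosomal protein genes, sorted, with large subunit symbols in green and small subunit symbols in purple. The intervals of Rpl27 and Rpl10 alone leave 0 out, and no gene passes after adjustment.

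The stalk proteins recruit translation factors to the large subunit. Rplp0 was listed at 9034, 8179 and 8909 in the WT libraries and at 10325, 8079 and 10159 in the KO ones. Rplp1 was at 7630, 7279 and 9277 against 7595, 8392 and 8727, and Rplp2 at 3258, 2509 and 2278 against 2900, 2898 and 2943. In all 3 genes the groups overlapped, with ratios of means between 1.02 and 1.09.

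Genes known from signalling or disease showed overlap as well. Rps6, the substrate of the S6 kinases, was at 144, 153 and 96.6 against 156, 97.4 and 127, and it has no unique window and 11 annotated copies. Rpl5 and Rpl11, which with the 5S ribosomal RNA bind Mdm2 when assembly is disturbed, had means of 642 ± 8.91 and 257 ± 38.4 (SD, n = 3) in the WT libraries. In the KO ones they had 709 ± 110 and 257 ± 78.5 (SD, n = 3). Rpsa, also known as the laminin receptor, had 720 ± 82.2 and 752 ± 38.6 (SD, n = 3). Rps19, the gene most often mutated in Diamond-Blackfan anaemia, was at 1135, 1180 and 1059 against 1400, 1091 and 1445, with a ratio of means of 1.17.

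Paralogs with an l suffix replace or accompany their partner in some tissues. Of the 8 in the group, Rpl7l1, Rpl22l1, Rps4l and Rps27l were tested. In an exact two-sided permutation test of log2(paralog + 1) minus log2(partner + 1) between the labels, with 3 against 3 libraries, no p can be below 0.10. The 4 tests gave p from 0.300 to 1.00 and adjusted p from 0.8 to 1. Rps27l, a p53 target, exceeded Rps27 in every library, by 46.0, 37.2 and 62.2 times in the WT ones and by 146, 62.3 and 50.1 times in the KO ones. Rps27 was listed at 44.8, 55.4 and 55.7 against 20.8, 43.8 and 49.6 (log2 change -0.52, SE 0.36, and -0.15 without KO library 1), with no unique window, while 51.0% of the windows of Rps27l were unique. The log2 ratio of the pair was higher by 0.68 in the KO libraries (exact permutation p = 0.300), with overlap, and by 0.24 without KO library 1.

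The other tested pairs leaned to the partner. Rpl22l1 held 0.134 to 0.199 of the value of Rpl22 and Rps4l, annotated as a transcribed processed pseudogene, 0.345 to 0.842 of the value of Rps4x, with values not divided by length. Rps4l was at 1509, 1388 and 794 against 1317, 1384 and 1369, so that WT library 3 stood low. The log2 ratio of Rps4l to Rps4x differed between the labels by 0.10, and by -0.29 without that library. Rpl7l1 was at 2269, 2213 and 2411 against 3180, 2712 and 2378, with a log2 change of 0.25 (SE 0.13, limma adjusted p = 0.401), or 0.15 without KO library 1. Its ratio to Rpl7 was 0.525, 0.549 and 0.503 against 0.656, 0.791 and 0.490, and these overlapped.

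**Figure D5:**
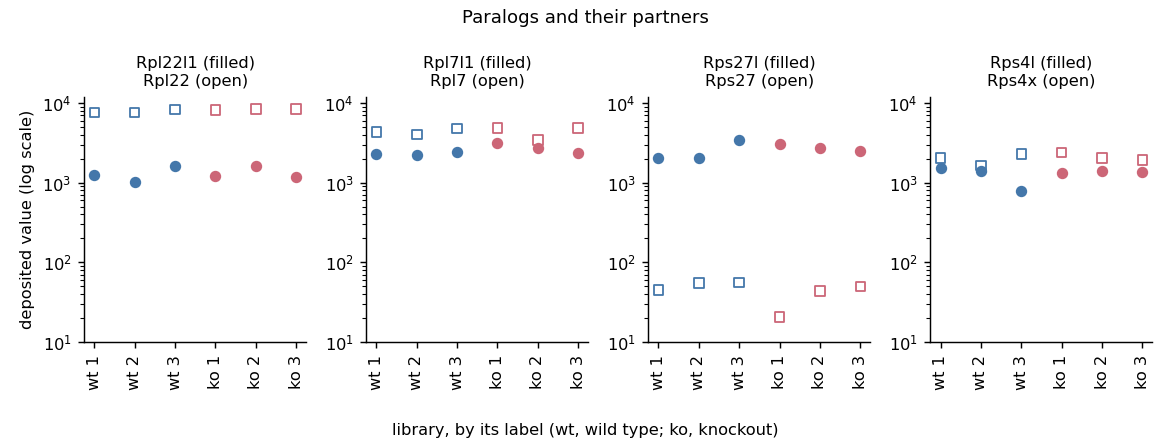
Deposited values (vertical, log scale) of 4 paralogs (filled circles) and their partners (open squares) in each of 3 WT (blue) and 3 KO (red) libraries. Rps27l lies far above Rps27 in every library, the other 3 paralogs lie below their partner, and WT library 3 is the low point of Rps4l.

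The tissue-bound paralogs were near the limit of detection. Rpl3l, which in mice is a protein of heart and skeletal muscle, was listed at 3.32, 6.52 and 3.93 in the WT libraries and at 0, 5.36 and 2.22 in the KO ones, while its partner Rpl3 was at 1588 to 2263. Rpl39l and Rpl10l, known from the testis, were at up to 15.7 and 11.8, both in WT library 3. Rpl6l, annotated as a processed pseudogene, was at 0.890 or less in every library, while Rpl6 was at 938 to 1067. Rpl39l was at 4.98, 4.56 and 15.7 against 0, 1.79 and 0.740, without overlap but below the level for testing.

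Other genes of the ribosome and of its making were looked up by lists. For comparison, 8823 of all 17034 tested genes had a log2 change above 0, and 3554 of the 5373 highly counted ones. Counts and medians of the lists below hold for the deposited scaling alone and were not computed with others. With scaling by upper quartiles the median of all genes moved from 0.01 to -0.19, so the signs of these lists rest on the scaling too. Ribosomal proteins with other symbols included Rack1, a scaffold on the small subunit, at 42223 to 50076, and Fau, a fusion with a ubiquitin-like protein, at 29.1 to 55.4. Of 75 tested mitochondrial ribosomal protein genes 0 passed at an adjusted p under 0.05, 8 had an unadjusted p under 0.05 (10.7%, against 14.2% of all tested genes) and 62 had a log2 change above 0, with a median of 0.15. Mrpl11 and Mrpl40 had the lowest p, with 1284 ± 2.63 and 745 ± 37.6 in the WT and 1600 ± 118 and 937 ± 42.8 (SD, n = 3) in the KO libraries, without overlap. Of 43 ribosome biogenesis genes 0 passed, 38 were above 0 and the median was 0.19, with Pes1, needed for large subunit assembly, at 1571 ± 86.3 and 2106 ± 353 (SD, n = 3; limma adjusted p = 0.289). The 43 genes together held 0.376% to 0.450% of all values in the WT libraries and 0.402% to 0.502% in the KO ones, with overlap. Eif6, which keeps the subunits apart, was at 1440 ± 246 and 1806 ± 66.2 (SD, n = 3). Of 10 genes of the RNA polymerase I machinery 0 passed and 7 were above 0, with a median of 0.12. Its subunit Polr1a was at 2490, 2464 and 2334 in the WT libraries and at 3427, 2521 and 2840 in the KO ones (limma adjusted p = 0.401). Polr1b was at 1145, 1138 and 1153 against 1853, 1390 and 1267 (limma adjusted p = 0.339). In both, KO library 1 was the highest. The 17 translation factor genes, most of which share the pyrimidine motif, had 14 above 0 and a median of 0.12, also with 0 that passed. Pabpc1, the poly(A)-binding protein, was at 2890, 2988 and 2742 against 4486, 3385 and 3184 (log2 change 0.34, SE 0.14, limma adjusted p = 0.343, and 0.19 without KO library 1). The 18 proliferation genes all had a log2 change above 0, with a median of 0.31, and 10 of them an unadjusted p under 0.05 (55.6%, against 14.2% of all tested genes) but 0 an adjusted one. Bub1 and Cdk1 had the lowest p, with limma adjusted p of 0.208 and 0.252. The 29 tested -ps rows had a median log2 change of 0.02, with 15 above 0.

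Of the genes that act on ribosomal protein mRNAs or on Rps6, 0 of 13 in the mTOR and Larp list passed, with 10 above 0 and a median of 0.13. Eif4ebp2, an inhibitor of cap-dependent translation under mTOR, was at 280 ± 34.0 and 372 ± 41.3 (SD, n = 3; limma adjusted p = 0.331). Rps6kb1, which encodes S6 kinase 1, was at 3547, 3626 and 4135 in the WT libraries and at 3118, 3115 and 3032 in the KO ones. The groups did not overlap, with a log2 change of -0.28 (SE 0.10, limma adjusted p = 0.294). Rps6ka3, another kinase of the family, was at 2745, 2920 and 2463 against 3609, 3611 and 3608, a log2 change of 0.42 (SE 0.10, limma adjusted p = 0.226). Of the 9 S6 kinase genes 0 passed, 4 were above 0 and the median was -0.04. At an unadjusted limma p under 0.05 there were 4 of these 9 (44.4%), against 14.2% of all tested genes. In the mTOR and Larp list, which shares Rps6kb1, there were 3 of 13 (23.1%). Among 8 chaperones and importers of ribosomal proteins 0 passed and 5 were above 0. Grwd1, a chaperone of Rpl3, had 868 ± 129 and 1209 ± 175 (SD, n = 3; limma adjusted p = 0.287), and the importin Ipo5 6764 ± 646 and 5622 ± 1131 (SD, n = 3). Of 4 tested host genes of small nucleolar RNAs 0 passed and 1 was above 0. Gas5 and Snhg6 were both highest in WT library 3, at 6945 and 2155, and at 3567 to 5651 and 1290 to 1521 in the other 5.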

How the data were processed

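Total RNA from 6 libraries was sequenced on an Illumina HiSeq 2000, per the labels' protocols. The tools were BWA, HTSeq, CASAVA 1.8.2 and DESeq2 1.14.0 with build mm10, per the submitters' processing notes, which give them no role; how reads that match several places or strands were counted is not given in the sources used here. The deposited files hold 1 value per gene with a decimal comma; the authors' unit is not named, and from the values they are reads counted per gene and scaled by 1 factor in each library (100% whole within 0.1 reads). Genes that reached 10 in 3 or more libraries were tested on log2(value + 1) with limma 3.58.1 (trend, two-sided, Benjamini-Hochberg over 17034 genes, threshold 0.05), which was checked on simulated data. A value of 10 stood for 5.8 to 15.3 reads. Positions, exons and transcripts came from GENCODE M21 (GRCm38), in which all 87 genes were matched by gene ID, and start sites from RefSeq (GRCm38.p6).

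The members and lists were chosen with earlier results of these data known. Values are given for Rplp0, Rplp1 and Rplp2, for paralogs and their partners, for the 6 genes with the lowest p in each direction, for the 5 highest and 5 lowest genes per kb, for Rps6, Rpsa, Rpl5, Rpl11 and Rps19, for up to 2 genes with the lowest p of each other list (the cell type marker lists by their sums alone), and for Shox2; some genes that this rule picks are not reported here. Copies with a given value were those annotated, as no genome sequence was used here. Alternatives were other scalings, pseudocounts of 0.5 and 5, no filter or one at 50, voom on recovered reads, each library left out, WT libraries 1 and 2 averaged, and libraries with Diff9 in the title as a block. Adding the values of annotated copies to their gene was chosen after seeing the data.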

Additional observations from a re-analysis of the deposited data

How the results depend on the processing

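No ribosomal protein gene passed under any of the 17 alternatives run. The planned count tests on recovered reads (edgeR and DESeq2) were not run; voom with sample quality weights was the test run on those reads. Over all genes the count of 0 became 391 with voom and sample quality weights, 2 with no filter on low values, and between 0 and 51 with 1 library left out, 51 being without KO library 2; the cause was not tested. The median log2 change of ribosomal protein genes was 0.04 to 0.14 with 1 library left out (large subunit 0.04 to 0.13, small subunit 0.04 to 0.14), and -0.11 with scaling by upper quartiles (large subunit -0.13, small subunit -0.10), which moves every library as a whole. The difference in their share of all values, 0.028 percentage points, was 0.001 to 0.050 with 1 library left out. Of 318 alternative values of the log2 changes of 19 named genes, 307 kept their direction. This count says little about stability, as a change of the filter alone leaves the log2 change of a gene as it was. Pseudocounts moved it little, and many of the 19 were named for a low p. With upper quartiles Rpl41 was at -0.04, Rps27l at -0.05, Rps4l at -0.01, Rpl22l1 at -0.16 and Rps3 at -0.07. Rps4l was at -0.05 with voom and at -0.09 without WT library 3. Rpl22l1, at 0.05 in the reported fit, was at -0.12 without WT library 2, at -0.09 without KO library 2, at -0.05 with WT libraries 1 and 2 averaged and at -0.08 with the Diff9 block. With 1 library left out Rps4l ranged from -0.09 to 0.37 and Rpl22l1 from -0.12 to 0.23. Likewise, the ratio of Rpl22l1 to Rpl22 changed between the labels by -0.19 to 0.10 on the log2 scale (0.10 without WT library 3, 0.05 without KO library 3), that of Rps4l to Rps4x by -0.29 to 0.35, that of Rpl7l1 to Rpl7 by 0.11 to 0.45 and that of Rps27l to Rps27 by 0.24 to 0.99. The titles give no one-to-one pairs: Diff9 stands in those of WT libraries 1 and 2 and KO library 3, and its meaning is not stated. With these 3 as a block, 0 ribosomal protein genes passed. The depth of library 1 in both groups limits genes with values under 100, which were 12 of the 81.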
